A study of Rattus norvegicus with 6 samples.

Results

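Senescence is a lasting exit from the cell cycle, and the DNA damage response is one of the routes into it. The 8 genes described here were chosen by symbol: the cyclin-dependent kinase inhibitors Cdkn1a, Cdkn2a and Cdkn2b, the damage kinase gene Atm, the p53 pathway genes Mdm2 and Gadd45a, the lamin gene Lmnb1 and the lysosomal galactosidase gene Glb1. All 8 were among the 22601 genes of the table, and 7 of them were among the 14588 with enough counts to be tested. RNA came from the hippocampus, its ventral part per the series' design text, of male Sprague Dawley rats, an outbred strain that carries no transgene. The adult group was 4 months old and the aged group 22 months, with 3 animals in each, drawn from rats that had been through the Morris water maze. No treatment is named for either group, and each of the 6 libraries is taken to be 1 animal.

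When DNA breaks, the kinase ATM activates p53, and p53 turns on Cdkn1a, whose product p21 blocks cyclin-dependent kinases, together with Mdm2, whose product degrades p53, and Gadd45a. The INK4 proteins, p16INK4a from Cdkn2a and p15INK4b from Cdkn2b, act by another route. They keep the cyclin D kinases from phosphorylating the retinoblastoma protein. Loss of lamin B1 and a rise in lysosomal beta-galactosidase are widely used signs of senescent cells. In brain, such signs have been described mostly in glia and cells of vessels, while neurons are already out of the cell cycle.

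Library totals lay between 12476758 and 15689921 counts. Markers of neurons, dentate granule cells and CA pyramidal cells, 6 genes each, had counts in every library, and the 6 neuronal markers summed to between 4959 and 6470 CPM (counts brought to a common library depth with edgeR's TMM factors). Some libraries stood apart. The 6 choroid plexus markers summed to 2138 CPM in adult replicate 1 and to between 5.32 and 72.2 CPM in the other 5 libraries, and the 6 liver markers summed to 21.9 and 23.7 CPM in replicate 1 of both ages and to between 193 and 501 CPM elsewhere. The 6 oligodendrocyte markers summed to between 11026 and 16658 CPM at 4 months and between 6392 and 8657 CPM at 22 months. The 6 markers of pericytes and smooth muscle summed to between 174 and 225 CPM and between 103 and 153 CPM. In adult replicate 3, skeletal muscle markers summed to 352 CPM, against 35.9 to 120 CPM elsewhere. Its dentate granule markers summed to 577 CPM (303 to 403 CPM elsewhere) and its CA pyramidal markers to 623 CPM (304 to 466 CPM elsewhere). The part of these tissues in the results below was not tested, except that values without each library are given where they differ. A fit with a block for libraries with low liver transcripts is given at the end. In bulk RNA, fewer cells of a type and less RNA per cell cannot be told apart.

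None of the 8 genes separated the ages. Of the 7 tested, 0 were called by edgeR's quasi-likelihood test at a Benjamini-Hochberg adjusted p under 0.05, where 0% of all genes tested were called, and 0 had an unadjusted p under 0.05, against 3.45% of all genes (1.18% higher and 2.27% lower in aged rats). DESeq2 also called 0 of the 7, and 0.213% of the genes it tested. The adult and aged values overlapped in each of the 7, so that 0 separated the groups, against 7.56% of all genes. The log2 fold change was above 0 in 4 and below 0 in 3, with a median of 0.08, while 49.5% of all genes lay above 0. These counts do not stand out from those over all genes.

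**Figure D1:**
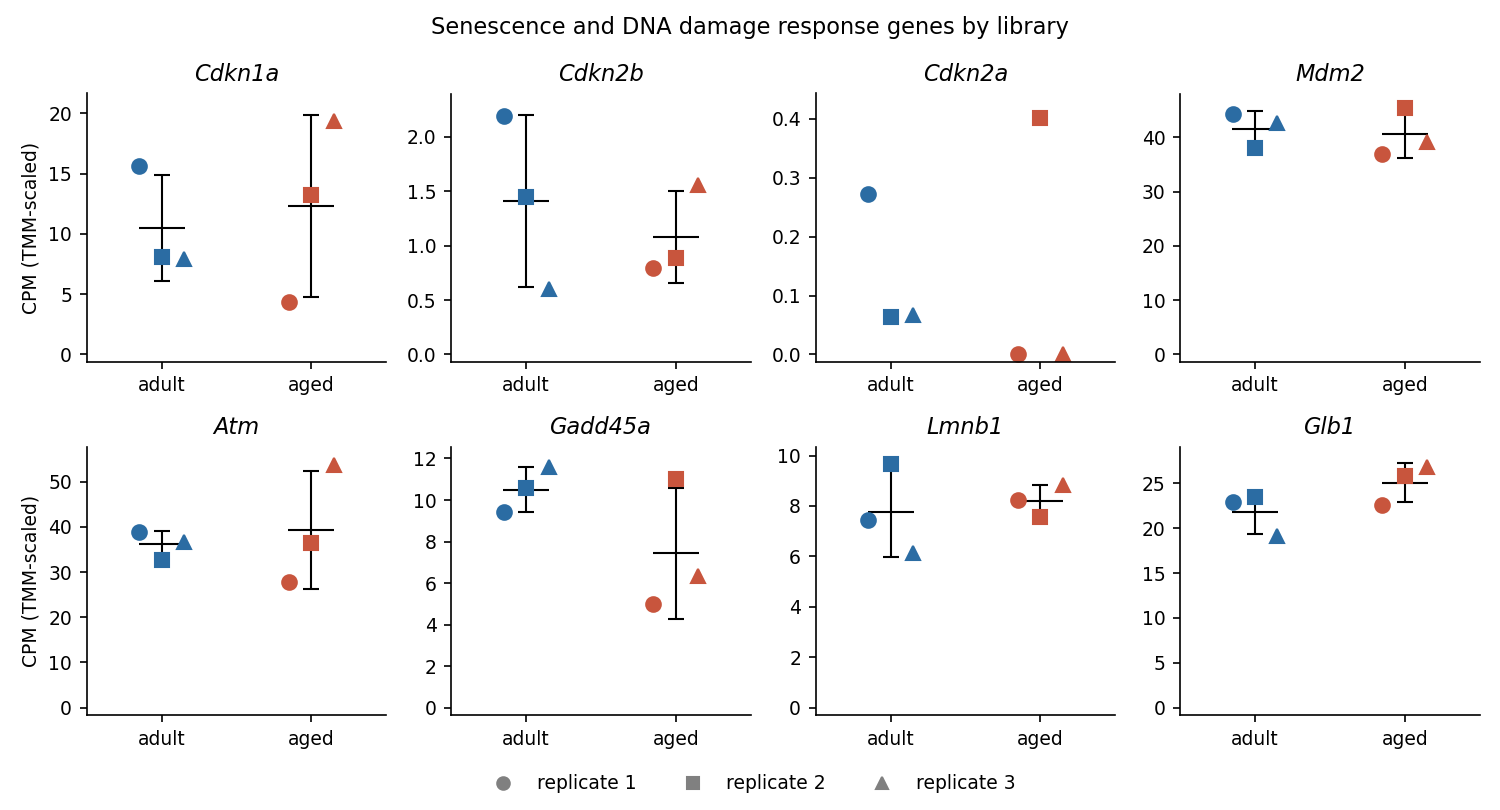
CPM of the 8 genes (y axis, TMM-scaled) in adult and aged libraries (x axis), with symbols for the replicate number and black bars for mean and SD (n = 3), left out for Cdkn2a. Adult and aged points overlap in every panel, and Cdkn1a runs from 4.39 to 19.4 CPM within the aged group.

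The genes differed widely in level. Compared per length, as FPKM (fragments per kilobase of gene and per unit of library depth), Mdm2 stood highest with a mean of 12.4 over the 6 libraries, and its lowest library, at 10.9 FPKM, was above every library of the other 7 genes. Glb1 (8.31 FPKM), Gadd45a (7.40 FPKM) and Cdkn1a (5.80 FPKM) followed, with ranges over libraries that overlapped one another. Lmnb1 (3.73 FPKM) and Atm (3.08 FPKM) came next and also overlapped. Cdkn2a and Cdkn2b averaged 0.189 and 0.179 FPKM, with lengths of 706 and 6997 bases implied by counts and FPKM. Without division by length Cdkn2b stood higher, with means of 1.41 CPM (adult) and 1.08 CPM (aged), against 0.134 CPM at both ages for Cdkn2a. Neither exceeded 0.568 FPKM in any library, which lay below the lowest library of the other 6 genes, Cdkn1a in aged replicate 1 at 2.17 FPKM.

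Cdkn1a, which encodes the inhibitor p21, was the most variable of the 7 within an age. It stood at 15.6, 8.09 and 7.93 CPM in adult replicates 1 to 3 and at 4.39, 13.2 and 19.4 CPM in aged replicates 1 to 3. The lowest and the highest of all 6 libraries were both from aged rats, 4.42-fold apart, and the adult libraries spanned 1.96-fold. Means were 10.5 ± 4.37 CPM at 4 months and 12.3 ± 7.54 CPM at 22 months (SD, n = 3). The log2 fold change of 0.23 ± 0.50 (SE) had a 95% interval from -0.93 to 1.38 and an edgeR adjusted p of 1.00, so a fall to 0.526-fold and a rise to 2.61-fold both lie at its ends. Its SD within ages, 0.86 on the log2 CPM scale, was larger than that of 95.4% of the genes tested, whose median was 0.23. The value turned to -0.27 without aged replicate 3 and was 0.65 without aged replicate 1. Without adult replicate 1, the library with choroid plexus transcripts and the highest adult value, it was 0.64. Leaving out either of the other adult libraries gave 0.07.

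The bases before the start of the p53 pathway genes are shown because p53 is their common activator. They are the 250 bases before the start that RefSeq gives each gene in the assembly GRCr8, 5′ to 3′ on the gene's strand, while the counts were made on Rnor_6.0. Cdkn1a lies at chr20:7150682-7150931 (plus strand), Mdm2 at chr7:55200792-55201041 (minus strand) and Gadd45a at chr4:97486800-97487049 (minus strand). Capitals mark matches, on either strand, to the p53 half-site, to GGGCGG (the core of an Sp1 site) and to TTTGAA (a CHR element of cell cycle promoters).
Cdkn1a: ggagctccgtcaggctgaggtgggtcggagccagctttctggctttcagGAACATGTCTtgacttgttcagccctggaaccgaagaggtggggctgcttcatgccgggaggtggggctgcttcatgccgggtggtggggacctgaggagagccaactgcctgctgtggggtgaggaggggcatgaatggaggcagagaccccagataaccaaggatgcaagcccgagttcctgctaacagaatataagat
Mdm2: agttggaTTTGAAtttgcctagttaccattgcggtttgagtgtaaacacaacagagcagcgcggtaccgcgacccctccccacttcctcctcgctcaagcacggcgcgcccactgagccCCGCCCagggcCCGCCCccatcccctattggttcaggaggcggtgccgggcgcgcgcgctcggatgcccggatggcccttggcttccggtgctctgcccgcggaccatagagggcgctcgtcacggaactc
Gadd45a: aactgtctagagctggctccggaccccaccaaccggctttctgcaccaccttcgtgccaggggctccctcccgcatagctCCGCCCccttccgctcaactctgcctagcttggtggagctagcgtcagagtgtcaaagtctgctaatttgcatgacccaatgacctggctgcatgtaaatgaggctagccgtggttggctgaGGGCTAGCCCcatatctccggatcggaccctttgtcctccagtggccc
A p53 half-site was found in 2 of the 8 genes' windows, GAACATGTCT in Cdkn1a from 201 to 192 bases before the start and GGGCTAGCCC in Gadd45a from 48 to 39 bases before it, against 6.64% of all 33469 windows. GGGCGG was found in 5 of the 8 (30.5% of all windows), among them Mdm2 and Gadd45a, and TTTGAA in 3 (16.2%), among them Mdm2 and Lmnb1. The E2F site TTTCCCGC was found in 1, Atm (0.813%). TTTGGCGC (0.412%) and TATAAA (12.9%) were in 0 of the 8 windows. A match describes the letters only. Sites outside these 250 bases, within introns for example, were not searched, so a window without a match does not show that a gene lacks a site. The p53 element long known for Cdkn1a lies upstream of its main start, and the start used here is the one the RefSeq table lists.

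Mdm2, the ubiquitin ligase gene that p53 induces and that limits p53, was the steadiest of the 7. It stood at 44.2, 38.1 and 42.7 CPM in adult replicates 1 to 3 and at 36.9, 45.3 and 39.2 CPM in aged replicates 1 to 3. The aged libraries held both the highest and the lowest value, within 1.23-fold of each other. The log2 fold change was -0.04 ± 0.13 (SE), with a 95% interval from -0.34 to 0.26, whose ends are 0.791-fold and 1.20-fold. Its SD within ages was 0.13 on the log2 CPM scale, larger than that of 18.7% of the genes tested. The libraries at the ends of Cdkn1a, aged replicates 1 and 3, held Mdm2 at 36.9 and 39.2 CPM, beside 4.39 and 19.4 CPM of Cdkn1a. Mdm4, the partner of Mdm2 in holding p53 in check, averaged 117 ± 5.25 CPM at 4 months and 121 ± 39.1 CPM at 22 months, with aged replicate 3 at 167 CPM and the other 5 libraries between 97.8 and 123 CPM.

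Gadd45a, a stress-induced gene whose product slows the cell cycle and takes part in repair, had the smallest p of the 7. It stood at 9.43, 10.6 and 11.6 CPM in adult replicates 1 to 3 and at 4.99, 11.0 and 6.32 CPM in aged replicates 1 to 3. Aged replicates 1 and 3 lay below every adult rat, and aged replicate 2 lay inside the adult range. The log2 fold change was -0.51 ± 0.30 (SE) with a 95% interval from -1.21 to 0.19 (edgeR adjusted p = 1.00). Without aged replicate 2 it was -0.89 (edgeR adjusted p = 0.966), and without aged replicate 1 it was -0.27. Among the libraries at the ends of Cdkn1a, Gadd45a was low in both, at 4.99 CPM where Cdkn1a was lowest and at 6.32 CPM where Cdkn1a was highest. The related Gadd45b and Gadd45g had log2 fold changes of -0.12 and -0.06.

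Atm, the kinase gene at the head of the break response, was level in adult rats and spread in aged rats. Adult replicates 1 to 3 stood at 38.8, 32.7 and 36.7 CPM and aged replicates 1 to 3 at 27.8, 36.5 and 53.6 CPM. Here too aged replicate 1 was the lowest and aged replicate 3 the highest of all 6 libraries, 1.93-fold apart, against 1.18-fold among adult rats. The log2 fold change was 0.12 ± 0.23 (SE), with a 95% interval from -0.40 to 0.65, and it was -0.17 without aged replicate 3 and 0.34 without aged replicate 1. Atm overlaps a long noncoding RNA gene in the GRCr8 annotation, as do Gadd45a and Glb1. How reads were assigned by strand is not given in the sources used here, and counts of these genes are uncertain to that extent.

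The INK4 genes were near the limit of detection. Cdkn2a, which yields the products p16INK4a and p19ARF from different first exons that a count per symbol does not separate, was counted 4, 1 and 1 times in adult replicates 1 to 3 and 0, 5 and 0 times in aged replicates 1 to 3. That made 6 counts in adult and 5 in aged rats, and all of the aged counts came from 1 library. A count of 0 allows up to 3 counts, which is 0.200 CPM in aged replicate 1 and 0.188 CPM in aged replicate 3, counting error only. Cdkn2a was left out of the test by the filter on low counts, and a difference between the ages was not detectable at this depth. Cdkn2b, which encodes p15INK4b, had 32, 23 and 9 counts in adult and 12, 11 and 25 counts in aged replicates 1 to 3, or 2.19, 1.45 and 0.600 CPM and 0.799, 0.884 and 1.56 CPM. Every aged value lay within the adult range. Its log2 fold change was -0.37 ± 0.54 (SE), with a 95% interval from -1.62 to 0.88, and leaving out adult replicate 1 turned it to 0.09. Leaving out aged replicate 1 gave -0.18, and leaving out replicate 3 of either age gave -0.74 (aged) and -0.73 (adult).

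Lmnb1, the gene of the B-type lamin that is lost from senescent nuclei, had means of 7.75 ± 1.79 CPM at 4 months and 8.21 ± 0.638 CPM at 22 months (SD, n = 3). It stood at 7.44, 9.67 and 6.13 CPM in adult and at 8.25, 7.55 and 8.82 CPM in aged replicates 1 to 3. Every aged value lay between the lowest and the highest adult value. The log2 fold change was 0.08 ± 0.23 (SE) with a 95% interval from -0.45 to 0.62, so a fall to 0.730-fold lies at its lower end. Leaving out adult replicate 3 turned it to -0.05, and leaving out adult replicate 2 raised it to 0.28. The other lamins overlapped between the ages as well. Lmna, the gene of lamins A and C, averaged 73.6 ± 9.80 CPM at 4 months and 75.0 ± 12.9 CPM at 22 months, and Lmnb2 averaged 20.6 ± 1.58 and 21.9 ± 1.78 CPM. Their log2 fold changes were 0.03 ± 0.16 and 0.09 ± 0.14 (SE).

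**Figure D2:**
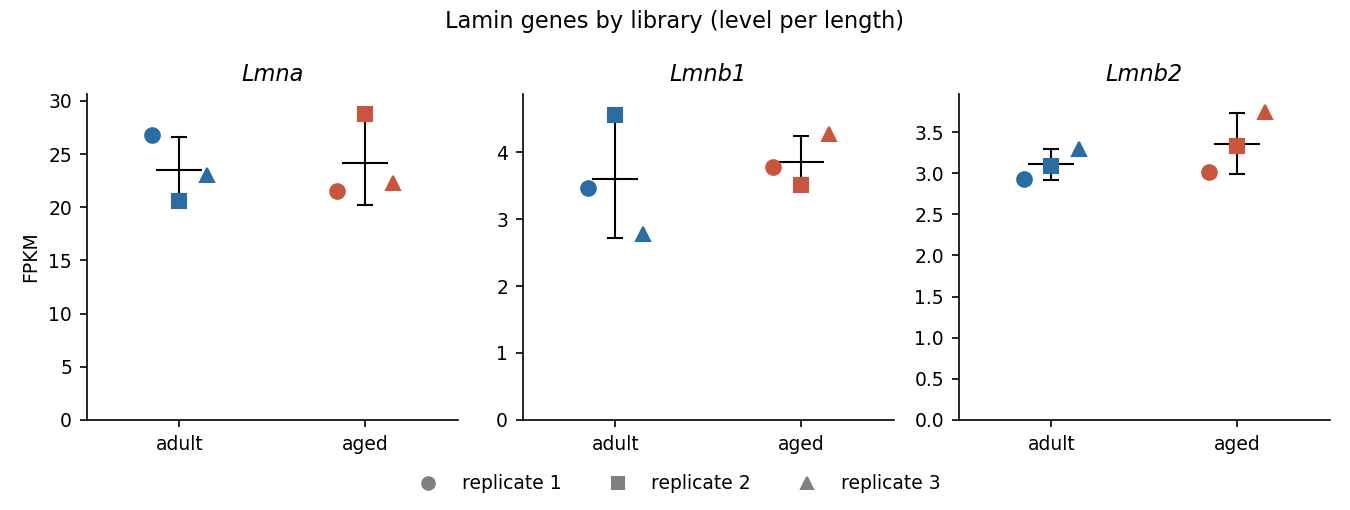
FPKM (y axis, level per gene length) of Lmna, Lmnb1 and Lmnb2 in adult and aged libraries (x axis), with mean and SD in black (n = 3 per age) and symbols for the replicate number. Lmna stands between 20.6 and 28.8 FPKM and Lmnb1 between 2.78 and 4.55 FPKM, with the ages overlapping in each panel.

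Within a library, the share of Lmnb1 in the summed FPKM of the 3 lamins does not depend on scaling between libraries. It was 10.5%, 16.1% and 9.55% in adult replicates 1 to 3 and 13.4%, 9.84% and 14.1% in aged replicates 1 to 3. The mean was 12% ± 3.53 in adult and 12.4% ± 2.26 in aged rats (SD, n = 3), a difference of 0.391 percentage points (exact two-sided permutation test, p = 0.90, where 3 rats against 3 cannot go below 0.1). Adult replicate 2 was the highest and adult replicate 3 the lowest library.

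Glb1 encodes the lysosomal beta-galactosidase that is stained at raised pH as a sign of senescence. It stood at 22.9, 23.5 and 19.1 CPM in adult and at 22.6, 25.8 and 26.8 CPM in aged replicates 1 to 3. Aged replicates 2 and 3 lay above every adult rat, and aged replicate 1 lay among them. The means were 21.8 ± 2.40 and 25.1 ± 2.19 CPM (SD, n = 3), a log2 fold change of 0.20 ± 0.15 (SE) with a 95% interval from -0.14 to 0.55 (edgeR adjusted p = 1.00). A rise beyond 1.46-fold lies outside that interval. The value stayed above 0 without each library in turn, between 0.12 and 0.29. In the GRCr8 annotation Glb1 also overlaps Tmppe, a protein-coding gene. Ctsa and Neu1, whose products form a lysosomal complex with beta-galactosidase, had log2 fold changes of -0.02 and -0.06. Galns, another gene on the list of lysosomal glycosidases and Glb1 partners, had 0.47 (edgeR unadjusted p = 0.150), the largest value in that list. It stood between 3.53 and 5.69 CPM in adult and between 5.13 and 7.72 CPM in aged rats.

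**Figure D3:**
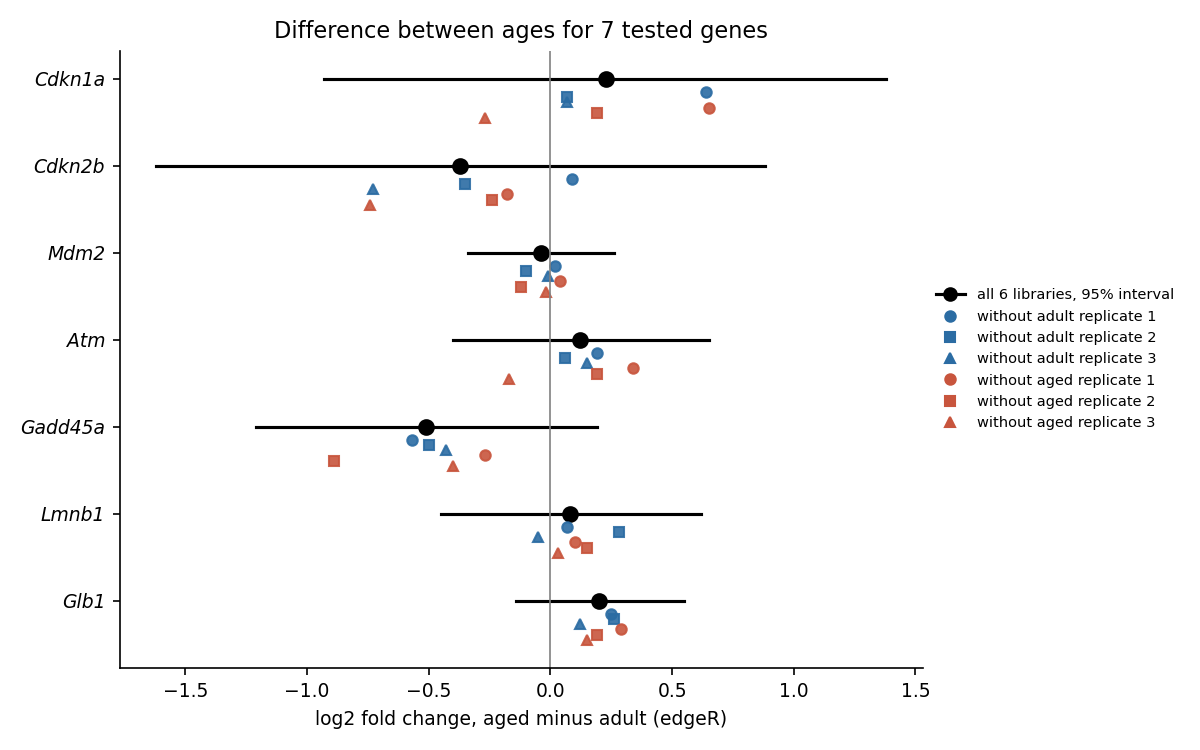
Log2 fold change between ages (x axis, aged minus adult) of the 7 tested genes (y axis), with all 6 libraries and the 95% interval in black and, below each, the value without each library in colour. Every interval includes 0, and the values of Cdkn1a without 1 library run from -0.27 to 0.65.

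Across the 7 tested genes, single libraries carried much of the spread. Aged replicate 3 was the highest library for 3 of them (Cdkn1a, Atm and Glb1), and aged replicate 1 was the lowest for 4 (Cdkn1a, Mdm2, Atm and Gadd45a) and adult replicate 3 for the other 3. Over all genes tested, aged replicate 3 was highest in 16.0%, and aged replicate 1 was lowest in 15.0%. With only 7 genes these shares are a description. The genes most like each member over the 6 libraries, by Pearson correlation of log2 CPM among 13141 genes averaging 1 CPM or more, included Scyl2 (r = 0.987) for Cdkn1a, Tgm1 (0.995) and Osgep (0.986) for Mdm2, and Kmo (0.996) and Hsd11b1 (0.995) for Gadd45a. For Atm they were Adat1 (0.996) and Col16a1 (0.990), for Cdkn2b Pip4k2a (0.993) and Hdac1 (0.993), for Lmnb1 Acy3 (0.992) and Frem2 (0.986), and for Glb1 Sorcs1 (0.999) and Etnppl (0.982). All points share the same 6 libraries and their depth. The values are the highest picked from 13141 genes over 6 points, so high r can arise by selection alone. Shared regulation was not tested. The measure ignores the size of the swing: Scyl2 moved only between 39.5 and 51.3 CPM where Cdkn1a moved between 4.39 and 19.4 CPM.

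Most other p53 targets had neither aged replicate 3 highest nor aged replicate 1 lowest, as holds for most genes. The list held 30 targets, of which 26 were tested and 0 were called in either direction, with 12 above and 14 below 0 and a median log2 fold change of -0.02, against -0.002 over all genes. In 1 of the 26 (3.85%) the ages did not overlap, against 7.56% of all genes tested. This was Ei24, which averaged 119 ± 3.94 CPM at 4 months and 107 ± 7.59 CPM at 22 months (edgeR adjusted p = 1.00). Gtse1, a cell cycle gene that restrains p53, averaged 4.61 ± 1.46 and 3.52 ± 0.782 CPM. Aged replicate 3, where Cdkn1a was highest, was the highest library for 2 of the 26 targets and the lowest for 5. Aged replicate 1, where Cdkn1a was lowest, was the lowest for 2 and the highest for 5. Over all genes tested, aged replicate 3 was highest in 16.0% and lowest in 18.2%. Aged replicate 1 was lowest in 15.0% and highest in 16.1%. With 26 genes these counts are a description. Tp53inp1, chosen after its values were seen, shared the top of the order with Cdkn1a, at 20.5 CPM in aged replicate 3 and 15.1 CPM in adult replicate 1 and between 5.27 and 9.23 CPM in the others. Bax, which promotes apoptosis, stood between 35.6 and 54.6 CPM, with adult replicates 1 and 3 highest. The 4 untested targets, Eda2r, Tnfrsf10b, Pidd1 and Gdf15, had at most 17 counts in any library.

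**Figure D4:**
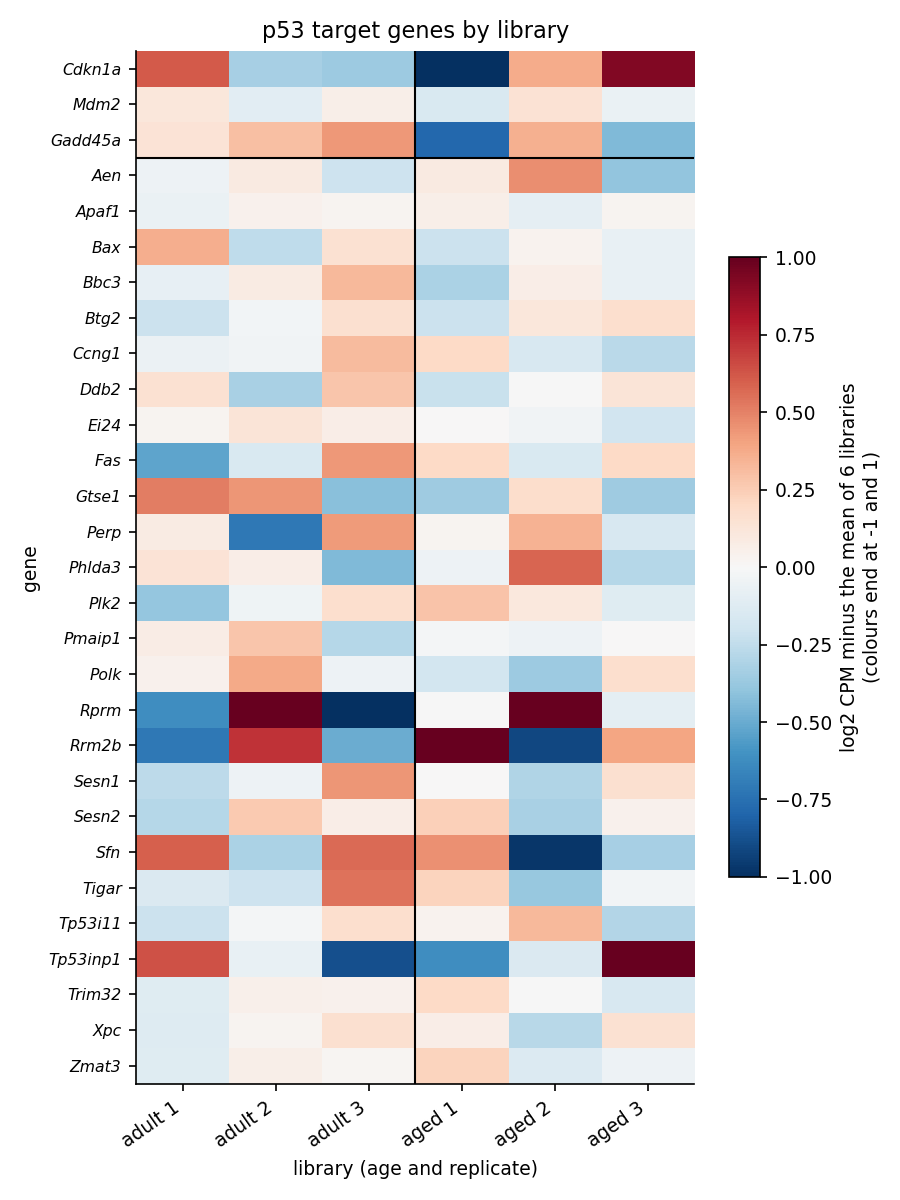
Log2 CPM minus the mean of the 6 libraries (colour, limits of the scale on the bar) for Cdkn1a, Mdm2 and Gadd45a (top 3 rows) and the 26 tested p53 targets (rows below) in each library (columns, adult left and aged right). Aged replicate 3 is the highest library for Cdkn1a and for 2 of the 26 targets (16.0% of all genes tested).

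Upstream of these targets, the list of p53 regulators (13 tested, 0 called) had 9 members above 0 and a median of 0.05, which was -0.03 without aged replicate 3. Their smallest p-values belonged to Trim24, a ligase gene acting on p53, at 23.4 ± 0.589 CPM at 4 months and 25.8 ± 1.91 CPM at 22 months, and Tp53bp1, the break-site adaptor, at 110 ± 7.10 and 122 ± 19.4 CPM. Damage sensors and checkpoint kinases had 13 of 23 tested members above 0, a median of 0.03 and 0 called. The ages did not overlap in 0 of these 23 and in 1 of the 13 p53 regulators (Rfwd2, lower in aged rats). They also did not overlap in 1 of 32 DNA repair enzymes (Ercc3, higher in aged rats). Over all genes tested the share was 7.56%. Prkdc, the kinase gene of end joining, averaged 38.4 ± 7.49 CPM at 4 months and 32.7 ± 4.45 CPM at 22 months. Rad9a, a clamp subunit, averaged 17.7 ± 2.75 and 15.8 ± 1.70 CPM. Atr, the sister kinase gene of Atm, had a log2 fold change of 0.17 and Chek2, the kinase gene downstream of Atm, also 0.17.

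DNA repair enzymes had 18 of 32 tested members above 0, a median of 0.03 and 0 called. Aged replicate 3 was the highest library for 15 of the 32 (46.9%), against 16.0% of all genes. Other lists also had 1 library often highest. These were aged replicate 3 for 7 of 13 p53 regulators (53.8%) and adult replicate 3 for 8 of 14 INK4 locus regulators (57.1%). Aged replicate 2 was highest for 8 of 18 lysosomal genes (44.4%). These shares are a description. Fancd2, of interstrand crosslink repair, averaged 3.72 ± 0.465 CPM at 4 months and 5.05 ± 1.10 CPM at 22 months, and the methyltransferase gene Mgmt 5.47 ± 2.25 and 7.69 ± 0.808 CPM. Neither passed the test (edgeR adjusted p = 1.00 for both).

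The other tested CDK inhibitors, Cdkn1b, Cdkn1c and Cdkn2c, had log2 fold changes of -0.33, -0.56 and -0.52, and 0 were called. Their median of -0.52 became -0.23 on leaving out adult replicate 1, the library with choroid plexus transcripts, where Cdkn1c was highest at 16.8 CPM. It became -0.34 on leaving out aged replicate 1 and -0.80 on leaving out aged replicate 2. Cdkn1b, the gene of p27, stood at 50.2, 42.5 and 41.2 CPM in adult and at 40.1, 28.0 and 38.4 CPM in aged replicates 1 to 3, so the ages did not overlap (edgeR adjusted p = 1.00). Cdkn2c, of the INK4 family, averaged 2.26 ± 0.379 and 1.58 ± 0.517 CPM. Cyclins, CDKs and RB-E2F genes had 7 of 19 above 0, 0 called and a median of -0.08, with Ccnd3 (a D-type cyclin) at 50.1 ± 5.88 and 42.0 ± 2.04 CPM and E2f1 at 4.87 ± 1.79 and 3.33 ± 0.317 CPM. Cdk1, the mitotic kinase gene that GADD45 proteins inhibit, stood at 0.888, 1.01 and 0.800 CPM at 4 months and 0.399, 0.241 and 0.188 CPM at 22 months. These values rest on few counts, 13, 16 and 12 in adult and 6, 3 and 3 in aged replicates 1 to 3. The log2 fold change of Cdk1 was -1.67 ± 0.51 (edgeR adjusted p = 1.00). The 6 proliferation markers, Cdk1 among them, summed to between 9.26 and 14.0 CPM at 4 months and between 6.51 and 7.45 CPM at 22 months. Of the 6 genes in the GADD45 family and partner list, 1 was above 0, 0 were called, and the median was -0.13, between -0.23 and -0.03 without each library in turn. Gadd45gip1 averaged 76.7 ± 8.83 and 69.4 ± 15.6 CPM. Regulators of the INK4 locus had 5 of 14 above 0, 0 called and a median of -0.05 (-0.12 without aged replicate 3). The ages did not overlap in 2 of the 14 (14.3%), 1 higher and 1 lower in aged rats, against 7.56% of all genes tested. The lower was Tbx2, a repressor of Cdkn2a, at 3.55 ± 0.624 and 2.20 ± 0.534 CPM (edgeR adjusted p = 1.00). The higher was the Polycomb gene Eed, with a log2 fold change of 0.21, where replicate 1 of both ages rounds to 17.7 CPM. The Polycomb gene Suz12 averaged 35.9 ± 4.54 and 31.2 ± 0.976 CPM.

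Of the 16 tested genes of the nuclear lamina and envelope, Lmna and Lmnb2 among them, 7 lay above 0, with a median of -0.01 and 0 called. Banf1, which ties DNA to the envelope, averaged 106 ± 14.2 and 84.9 ± 15.6 CPM, and Fnta, a subunit of the enzyme that farnesylates lamins, 68.9 ± 7.52 and 58.4 ± 7.29 CPM. Chromatin proteins tied to senescence had 5 of 8 above 0, 0 called and a median of 0.06, which was -0.09 without aged replicate 2. Hmgb2, a chromatin protein that falls in senescent and in non-dividing cells, stood at 11.3, 8.79 and 10.7 CPM in adult and at 5.19, 6.75 and 6.20 CPM in aged replicates 1 to 3. Every aged rat lay below every adult rat, and the log2 fold change of -0.76 ± 0.22 had an adjusted p of 1.00 by edgeR and of 0.458 by DESeq2. Suv39h1, a histone methyltransferase gene, averaged 13.4 ± 1.53 and 14.8 ± 2.15 CPM.

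Lysosomal glycosidases and partners of Glb1 had 7 of 18 above 0 and a median of -0.03, with 0 called. Tfeb, the transcription factor gene of lysosome formation, stood at 18.0, 14.7 and 14.9 CPM in adult and at 10.4, 12.5 and 11.3 CPM in aged replicates 1 to 3, without overlap (log2 fold change -0.47 ± 0.17, edgeR adjusted p = 1.00).

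Of 26 factors secreted by senescent cells, 15 had enough counts to be tested, 4 of them above 0, with a median of -0.29 and 0 called. Leaving out adult replicate 2 gave a median of -0.09, leaving out adult replicate 1 gave -0.16, and leaving out aged replicate 3 gave -0.13. Markers of meningeal fibroblasts, cells that also make such factors, summed to between 175 and 316 CPM at 4 months and between 74.8 and 146 CPM at 22 months. Their part in the median was not tested. The ages did not overlap in 2 of the 15 (13.3%), both lower in aged rats, against 7.56% of all genes tested and 4.43% lower. Among these, Plau, the urokinase gene, averaged 1.08 ± 0.0620 and 0.495 ± 0.224 CPM (edgeR adjusted p = 1.00). The other 11 had at most 34 counts in any library and included Il6, at 0 to 2 counts. Fitted with no filter, 3 of these 11 lay above 0 and 7 below, and 1 had no counts. Among them, chosen after their values were seen, Il1a had 3, 0 and 5 counts in adult and 10, 19 and 6 counts in aged replicates 1 to 3, and Plaur, the urokinase receptor gene, had 4, 7 and 7 and 17, 34 and 1 counts. In the other direction, Mmp13, a collagenase gene, had 22 counts in all adult and 8 in all aged rats, and the chemokine gene Ccl2 15 and 6. In the fit with no filter, Il1a had a log2 fold change of 2.20 and an edgeR adjusted p of 1.00. Survival factors of senescent cells had 1 of 4 tested above 0 and a median of -0.02, which was -0.13 without aged replicate 3, with Dpp4 at 1.97 ± 1.18 and 1.12 ± 0.419 CPM and Bcl2l2 at 232 ± 24.7 and 246 ± 6.57 CPM.

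**Figure D5:**
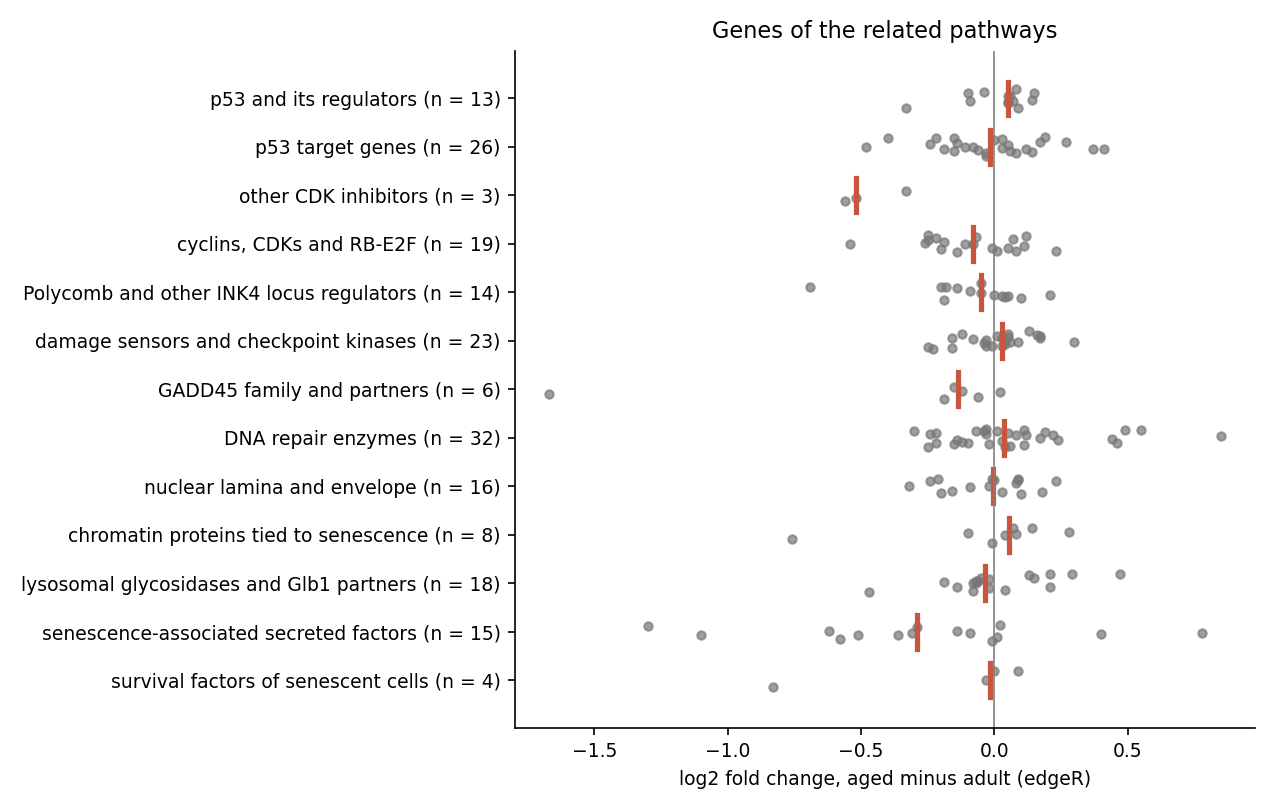
Log2 fold change (x axis, aged minus adult) of the tested genes of 13 related lists (y axis), 1 point per gene, with the list median as a red bar. The median lies within 0.13 of 0 in every list but the 3 other CDK inhibitors (-0.52, and -0.23 without adult replicate 1) and the secreted factors (-0.29).

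Over the 13 lists together, 197 genes were tested, 0 were called, 5 had an unadjusted p under 0.05 by edgeR (Cdk1, Hmgb2, Tfeb and Plau among them, all lower in aged rats), and in 13 (6.60%) the ages did not overlap, 2 higher and 11 lower in aged rats. Over all genes tested these shares were 3.45% at that p and 7.56% without overlap, 3.13% higher and 4.43% lower.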

How the data were processed

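The authors deposited raw read counts per gene symbol for each of the 6 libraries, in whole numbers, and FPKM values. The deposited FPKM values matched counts divided by the library total and by 1 fixed length per gene, to within 0.1% between libraries (18553 genes with counts). Reads were mapped to Rnor_6.0, per the submitters' processing notes, while for the aligner, the counting program, the annotation and whether strand was used, the answer is not given in the sources used here. Date-like symbols numbered 27, none of them a member. Groups come from the age labels.

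Counts were filtered with filterByExpr, scaled by TMM and tested with edgeR 4.0.16 (glmQLFit and glmQLFTest, R 4.3.3, two-sided, age as the only term), with Benjamini-Hochberg adjustment over 14588 genes and calls at an adjusted p under 0.05. Standard errors and 95% intervals follow from the F statistic of that test. Means carry SD over 3 rats, and tests rest on the spread between these animals. CPM values are TMM-scaled. List medians and counts carry no test.

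The members and lists were chosen with earlier results of these data known. The text names all 8 members, up to 2 members with the smallest p of each of 13 lists, the 2 genes most correlated with each tested member, and Lmna, Lmnb2 and Mdm4. Some genes that this rule names are not reported here. Other genes were chosen to complete a family or complex, or after their values were seen. Motifs were searched in 33469 RefSeq windows of 250 bases (GRCr8), which also gave names of overlapping genes.

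Alternatives were scaling by library size alone, RLE or upper quartiles, no filter or a minimum of 1 CPM in 3 libraries, DESeq2 1.42.0, limma-voom (limma 3.58.1), limma on log2(FPKM + 1) and log2(FPKM + 0.1), a replicate block, an adjusted p under 0.1, and leaving out each library. A block for libraries with low liver transcripts was added after seeing the data. The scripts were tested on simulated counts. Figures were drawn with matplotlib 3.10.9.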

Additional observations from a re-analysis of the deposited data

How the results depend on the processing

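None of the 7 tested members was called under any of the alternatives (119 values, smallest adjusted p = 0.933). Their direction changed in 6 of these values, each time by leaving out 1 library. Without each library in turn the log2 fold change ran from -0.27 to 0.65 for Cdkn1a, from -0.74 to 0.09 for Cdkn2b, from -0.12 to 0.04 for Mdm2, from -0.05 to 0.28 for Lmnb1, from -0.17 to 0.34 for Atm, from -0.89 to -0.27 for Gadd45a and from 0.12 to 0.29 for Glb1. The Lmnb1 share of lamin FPKM differed by between -0.849 and 2.41 percentage points, and by 0.208 as a share of counts and 0.273 among B-type lamins. Over all genes, edgeR called 0, DESeq2 31 and limma on log2(FPKM + 1) 2, and edgeR called 0 to 1 without each library, 1 each without adult replicate 1, 2 or 3. The cause was not tested. Of 221 list medians under alternatives, 6 moved by more than 1 SD of the spread between libraries, all on leaving out a library.

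With the replicate number as a block, 0 genes were called and Cdkn1a stood at 0.12 and Gadd45a at -0.58. A block for libraries with low liver transcripts gave 0 genes called, with Cdkn1a at 0.15 and Gadd45a at -0.54. Deviations of same-numbered libraries correlated at -0.015, -0.057 and 0.087, and those of unlike-numbered libraries between -0.124 and 0.118. The numbers were therefore not taken to pair animals. Shared handling of libraries with the same number was not tested. Leaving out 1 library leaves 2 animals in an age. Cdkn2a, at 0 to 5 counts a library, is limited by depth.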
